A study of Mus musculus with 29 samples.

Results

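The heavy-chain variable segments (gene symbols beginning with Ighv and a number) were examined as a group in kidney, tertiary lymphoid structures (TLS) and lymph nodes of lupus-prone mice. All 120 genes of the table whose symbol matched this pattern were taken, out of 13982 genes. The members were chosen by symbol alone and not by their values. Every segment is described by its reads and by its share of the Ighv reads of a library.

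The mice were NZB/W, the New Zealand black and New Zealand white F1 cross, which develops anti-dsDNA antibodies and nephritis without treatment. Of the 14 libraries, 4 were kidney, 3 TLS and 3 lymph node of proteinuric mice, named H6 (39 weeks), H20 (36 weeks), H115 (25 weeks) and H117 (32 weeks) in the labels. Mouse H115 had no lymph node library and mouse H117 had no TLS library. TLS were dissected by hand under a loupe from proteinuric kidneys, and the kidney tissue came from the same organ. The other 4 libraries were lymph nodes, from mice D10, D11 and L25, antibody-positive for under 5 weeks per the labels (aged 28, 29 and 18 weeks), and from mouse C45, labelled young (4 weeks). For the antibody-positive group RNA was purified with another kit (miRNeasy) than for the others (TRIzol), so kit and disease stage cannot be told apart. These mice were also younger than the proteinuric mice with a lymph node library. Each library is from 1 animal.

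Each B cell joins a variable, a diversity and a joining segment of the heavy-chain locus into the exon that encodes the antigen-binding end of its antibody. The variable segments form families by sequence, and the families lie in clusters along the locus. Plasma cells carry far more antibody mRNA than resting B cells, so reads of a segment count RNA and not cells. In these bulk samples, fewer B-lineage cells and less antibody RNA per cell cannot be told apart.

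Total reads per library were between 343825 and 443379. The share of reads on 2 ribosomal RNA genes ranged from 0.385% to 55.6%, the last in the kidney of mouse H117, and levels are therefore given per 1000 reads outside these genes. The B-cell markers Ms4a1 and Pax5 had no read in any kidney library. Plasma cell markers (6 genes listed) summed to between 0.121 and 0.481 reads per 1000 in kidney, to between 2.16 and 4.87 in TLS and to between 4.27 and 6.36 in lymph nodes of proteinuric mice. Markers of kidney tubule (5 genes) summed to between 19.3 and 52.8 in kidney, to between 4.84 and 19.3 in TLS and to between 0.0404 and 0.128 in these lymph nodes. T-cell markers (5 genes) reached 0.0255 in kidney, lay between 0.195 and 0.344 in TLS and between 0.532 and 0.707 in these lymph nodes. The lymph node vessel and stroma markers Glycam1, Ccl21a and Madcam1 summed to at most 0.0537 in kidney, to between 0.361 and 0.963 in TLS and to between 4.68 and 8.30 in lymph nodes of proteinuric mice. In the library labelled young, IgG genes took 87.8% of the heavy constant reads, above the 74.7% to 87.5% of the other 6 lymph node libraries. This library enters no comparison.

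Of the 120 symbols, all but Ighv1-13_2 matched an annotated gene of GRCm38. All matched genes lay on the minus strand of chromosome 12 between positions 113572927 and 116010093, and 22 were annotated as pseudogenes. The annotation lists 183 Ighv genes and pseudogenes in all. The segments are so alike that reads can be shared between them. Over the variable region, the median identity of a segment to its nearest listed segment was 94.9% (range 75.2% to 100%), and 24 segments had a neighbour of at least 97% identity. These 24 took between 14.2% and 28.3% of the Ighv reads of a library. The reference is not the genome of these mice, so a symbol stands for the listed segment and its close relatives in NZB/W. Shares are shares of reads and are not divided by length (annotated spans up to 572 bases, median 436).

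Variable regions (GENCODE transcripts of GRCm38, read on the minus strand, the 3′ end of the transcript) are shown for the segment that led most often and for pairs of segments that were high in single mice. In the first pair, capitals mark the 5 bases at which Ighv1-15 (chr12:114657353-114657646) and Ighv1-23 (chr12:114764450-114764743) differ, an identity of 98.3%.
Ighv1-15: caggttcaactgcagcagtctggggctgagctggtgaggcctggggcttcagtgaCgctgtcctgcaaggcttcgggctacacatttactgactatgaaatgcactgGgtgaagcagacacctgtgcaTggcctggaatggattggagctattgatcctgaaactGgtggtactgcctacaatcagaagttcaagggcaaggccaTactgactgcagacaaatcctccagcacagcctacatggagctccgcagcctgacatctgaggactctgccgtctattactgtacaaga
Ighv1-23: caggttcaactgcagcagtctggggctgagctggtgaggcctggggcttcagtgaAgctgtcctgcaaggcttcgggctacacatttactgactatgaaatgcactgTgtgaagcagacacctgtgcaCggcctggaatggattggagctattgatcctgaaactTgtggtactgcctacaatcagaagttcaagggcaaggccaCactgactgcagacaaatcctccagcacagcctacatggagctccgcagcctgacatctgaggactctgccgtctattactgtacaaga
Ighv14-3 (chr12:114059845-114060138) and Ighv14-4 (chr12:114176438-114176731) differ at 15 bases, in capitals, an identity of 94.9%.
Ighv14-3: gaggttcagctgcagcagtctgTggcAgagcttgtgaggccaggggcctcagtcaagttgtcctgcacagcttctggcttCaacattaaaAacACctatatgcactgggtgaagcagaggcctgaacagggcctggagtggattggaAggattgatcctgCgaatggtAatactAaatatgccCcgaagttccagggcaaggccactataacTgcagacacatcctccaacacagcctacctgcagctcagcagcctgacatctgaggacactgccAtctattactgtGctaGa
Ighv14-4: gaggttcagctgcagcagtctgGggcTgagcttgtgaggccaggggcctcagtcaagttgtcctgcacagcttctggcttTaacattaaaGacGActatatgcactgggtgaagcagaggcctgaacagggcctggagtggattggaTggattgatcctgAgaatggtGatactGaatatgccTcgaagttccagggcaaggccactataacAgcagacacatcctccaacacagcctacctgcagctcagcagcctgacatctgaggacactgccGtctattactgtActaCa
Ighv1-82 (chr12:115952538-115952831), near the distal end of the locus, is most like Ighv1-80, with 11 differing bases. It is shown without capitals.
Ighv1-82: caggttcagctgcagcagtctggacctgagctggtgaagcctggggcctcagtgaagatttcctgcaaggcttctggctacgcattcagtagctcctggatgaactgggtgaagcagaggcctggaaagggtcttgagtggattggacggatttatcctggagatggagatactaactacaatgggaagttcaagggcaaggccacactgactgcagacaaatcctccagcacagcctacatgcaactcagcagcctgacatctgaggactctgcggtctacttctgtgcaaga

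Ighv reads were abundant in TLS and lymph nodes and scarce in kidney. In kidney there were 1.995 Ighv reads per 1000 in mouse H6 (680 reads), 1.95 in mouse H20 (690 reads), 1.09 in mouse H117 (183 reads) and 0.259 in mouse H115 (90 reads). In TLS there were 65.0 per 1000 in mouse H6 (25307 reads), 40.1 in mouse H20 (14940 reads) and 16.7 in mouse H115 (5819 reads). The lymph nodes of proteinuric mice had 70.3 in mouse H6, 48.5 in mouse H20 and 58.7 in mouse H117. Every TLS and lymph node library lay above every kidney library, and mouse H115 was the lowest in both tissues it gave. The means were 1.325 ± 0.823 (SD, n = 4) in kidney, 40.6 ± 24.2 (n = 3) in TLS and 59.2 ± 10.9 (n = 3) in lymph nodes. The mean of TLS was 30.7-fold that of kidney, and the mean of lymph nodes 44.7-fold.

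On the log2 scale TLS lay 5.10 above kidney (exact two-sided permutation test, p = 0.0571), which is the smallest p that 4 against 3 libraries can give. The difference of kidney minus lymph node was -5.83 (exact permutation p = 0.0571, again the smallest possible). TLS and lymph nodes overlapped, with TLS lower by 0.73 on average (exact permutation p = 0.3). Across tissues, sums of plasma cell markers, as given above, and of B-cell markers moved with these levels. The B-cell markers (5 genes) summed to at most 0.0707 per 1000 in kidney, 0.825 to 1.34 in TLS and 1.31 to 2.295 in lymph nodes. In the kidneys of mice H6, H20, H115 and H117 the plasma cell marker Xbp1 had 89, 63, 29 and 11 reads, and Prdm1 and Tnfrsf17 had none. The part of either cell type in the difference was not tested.

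**Figure D1:**
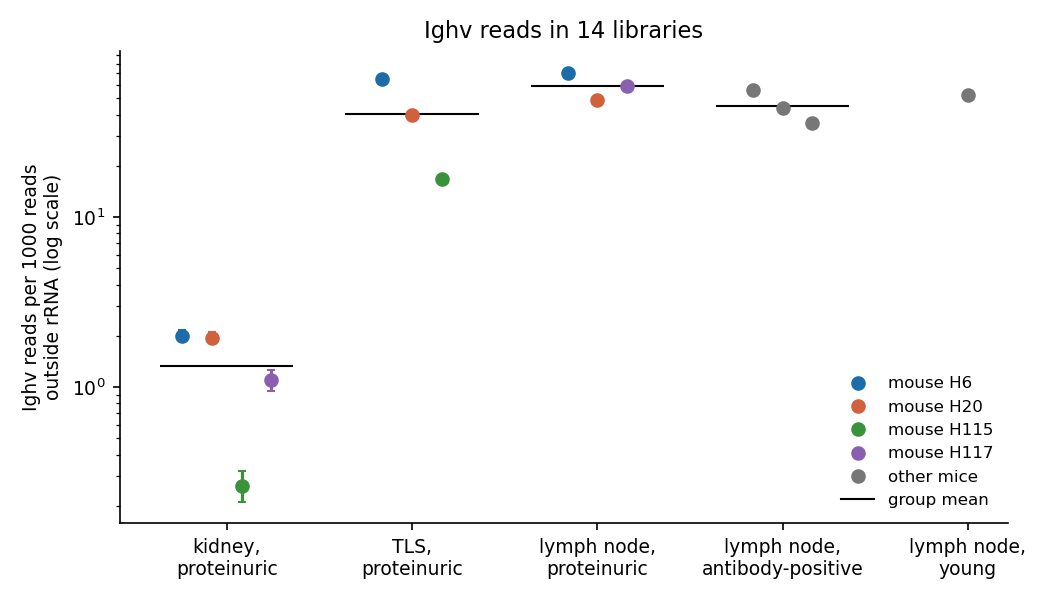
Ighv reads per 1000 reads outside rRNA genes (log axis) in the 14 libraries by group. Points are libraries, coloured by mouse, with 95% Wilson intervals for counting error, and lines are means of groups with more than 1 library. The 4 kidney libraries lie between 0.259 and 1.995 and the 3 TLS libraries between 16.7 and 65.0.

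Single segments were tested with limma in a model that held the 10 kidney, TLS and lymph node libraries of proteinuric mice, over 7382 genes with a mean deposited value of at least 5 (Benjamini-Hochberg adjusted p under 0.05). Of the 120 segments, 103 passed this filter, and the other 17 together held at most 0.802% of the Ighv reads of any library. Most passed through TLS and lymph node values, since 37 segments had a mean of at least 5 in kidney itself. A count over the tested segments is therefore a description and not support for a difference. In kidney versus TLS, 69 of 103 were called, all higher in TLS. Over all genes, 8.62% were called higher in TLS and 6.07% higher in kidney. The median log2 fold change was -3.82 over the 103 segments (range -6.01 to -0.14) and 0.01 over all genes. Of the 37 segments above the filter in kidney, 32 were called.

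In kidney versus lymph node, 95 of 103 were called, all higher in lymph node, where the share of all genes was 20.8% (23.0% were higher in kidney). The median log2 fold change was -4.85 over the segments (range -6.96 to -1.46) and -0.05 over all genes. All 37 segments with a kidney mean of at least 5 were among those called. Both comparisons use the same 4 kidney libraries.

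The segments with the largest difference in level between kidney and TLS came from several families. These fold changes include the difference in total Ighv reads given above. Ighv2-9-1, of the Q52 family, had 25, 3, 0 and 1 reads in the kidneys of mice H6, H20, H115 and H117, against 875, 427 and 178 in the TLS of mice H6, H20 and H115. Its log2 fold change, on log2(value + 1), was -6.01 (SE 0.71, limma adjusted p = 0.00023). As a share of the Ighv reads it had 3.68% in the kidney of mouse H6 and 3.46% in its TLS. The shares were 0.435% and 2.86% in mouse H20, and 0% and 3.06% in mouse H115. Ighv10-1 had 0, 1, 2 and 0 reads in kidney and 366, 54 and 190 in TLS (log2 fold change -5.66, SE 0.62, limma adjusted p = 0.00015). The kidney and TLS libraries did not overlap for either gene. Ighv1-64, Ighv1-62 and Ighv2-6 followed, with log2 fold changes of -5.29, -5.21 and -5.13. Against lymph node, the largest differences were those of Ighv2-9-1 (-6.96), Ighv1-62 (-6.41), Ighv1-64 (-6.40), Ighv1-83 (-6.20) and Ighv5-4 (-6.14), all called and without overlap. In kidney these 7 segments had between 0 and 25 reads in a library. Ighv10-1 and Ighv1-83 had mean values of 1.956 and 2.495 in kidney, under the filter of 5. They were tested only through their TLS and lymph node values, so their calls are a description.

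Few segments were called between lymph nodes and TLS. In lymph node versus TLS, 3 of 103 were called, all higher in lymph node, with 1.69% of all genes called in that direction and 8.87% higher in TLS. The median over the segments was 0.92, with 95 of 103 on the side of lymph node, and 0.04 over all genes. Ighv1-83, annotated as a pseudogene, had 143, 229 and 312 reads in the lymph nodes of mice H6, H20 and H117 and 55, 135 and 33 in the TLS of mice H6, H20 and H115 (log2 fold change 1.96, SE 0.50, limma adjusted p = 0.023). Ighv12-3, a segment known from B-1 cells that bind phosphatidylcholine, had 8, 3 and 51 reads in lymph node and 0, 2 and 0 in TLS (log2 fold change 2.60, SE 0.76, limma adjusted p = 0.046), and passed the filter only through lymph node. Of the 98 segments with a mean of at least 5 in TLS itself, 2 were called. Ighv9-4 had 10, 20 and 49 reads in lymph node and 6, 16 and 3 in TLS (log2 fold change 1.59, SE 0.44, limma adjusted p = 0.036). Mouse H117 carried the highest lymph node count of all 3, and TLS libraries lacked this mouse. As shares of Ighv reads the libraries of both tissues overlapped for Ighv9-4 and Ighv1-83, and Ighv1-83 took 0.217% to 0.904% in TLS and 0.685% to 1.55% in lymph node.

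None of the 3 calls held with the mouse as a replicate block (adjusted p between 0.107 and 0.152, 2 other segments called) or with the edgeR quasi-likelihood test (adjusted p between 0.064 and 0.182). The edgeR test called 0 segments, with 4 at an unadjusted p under 0.05 against 17 in limma, and DESeq2 called 3, Ighv12-3 (adjusted p = 0.024) and Ighv1-83 (adjusted p = 0.023) among them. The limma count was 8 without the TLS of mouse H6 or of mouse H20, 0 without the TLS of mouse H115 or the lymph node of mouse H117, and 1 without the lymph node of mouse H6.

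Other genes of heavy-chain expression are given as a description, since they too could pass the filter through TLS and lymph node values. Of 28 such genes in the table (constant genes, DNA repair genes, B-cell and plasma cell genes), 23 were tested. In kidney versus TLS 19 of them were called, all higher in TLS (median log2 fold change -3.90), against 8.62% of all genes. Of the 13 listed genes with a mean of at least 5 in kidney itself, 12 were called. Ighg2c, an IgG constant gene, had 92 to 352 reads in kidney and 3636 to 17581 in TLS (log2 fold change -5.15, SE 0.55, limma adjusted p = 0.00012). Pou2af1, a coactivator of antibody genes in B cells, had at most 1 read in a kidney library and 29 to 70 in TLS, and passed the filter through TLS and lymph node. In kidney versus lymph node 21 of 23 were called, all higher in lymph node (median -4.91), against 20.8% of all genes. In lymph node versus TLS only Pou2af1 was, and it was higher in lymph node (log2 fold change 1.10, SE 0.32, limma adjusted p = 0.048). Of all genes, 1.69% were called in that direction.

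The number of segments seen was lowest in the kidney libraries, which had the fewest Ighv reads. At least 1 read was found for 64, 64, 19 and 43 segments in the kidneys of mice H6, H20, H115 and H117, for 110, 113 and 90 in the TLS of mice H6, H20 and H115, and for at least 110 in each lymph node of proteinuric mice. All 120 segments were seen in at least 1 library and 17 in every library, and 44 had no read in any kidney. A count of 0 allows a share of up to 0.435% in the kidney of mouse H20, of up to 3.33% in that of mouse H115 and of up to 0.0516% in the TLS of mouse H115 (3 reads of the Ighv total, counting error only). At a fixed number of 90 Ighv reads, the depth of the kidney of mouse H115, the expected number of segments was 36.3, 39.6, 19.0 and 34.1 in kidney (mice H6, H20, H115 and H117), between 37.6 and 42.1 in TLS and between 42.0 and 44.9 in lymph node. The kidney of mouse H115 stood apart, and all 4 kidneys lay below the 3 lymph nodes of proteinuric mice (exact permutation p = 0.0571, the smallest possible).

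The inverse Simpson number, the number of equally used segments that would give the same evenness, was computed with a correction for depth. It was 31.5, 37.0, 12.2 and 28.1 in the kidneys of mice H6, H20, H115 and H117. In TLS it was 32.0, 35.7 and 24.4 in mice H6, H20 and H115, and in lymph node 38.1, 34.6 and 44.3 in mice H6, H20 and H117. Mouse H115 had the lowest value of both tissues it gave. TLS had a mean of 30.7 ± 5.79 (SD, n = 3) and lymph node of 39.0 ± 4.92 (n = 3), a difference within the overlap of the libraries (exact permutation p = 0.2, smallest possible 0.1). Kidney (27.2 ± 10.7, n = 4) overlapped with TLS (exact permutation p = 0.743) and with lymph node (exact permutation p = 0.114).

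Usage was broad. Outside kidney no segment took more than 13.3% of the Ighv reads of a library, the 10 leading segments took between 37.0% and 51.1%, and 74 of the 120 segments had a mean share under 1% in every group. Ighv1-82, of the large J558 family, was the leading segment in 7 of the 14 libraries, and 8 different segments led in all. In kidney it had 7.35% (95% Wilson interval 5.62 to 9.56) of the Ighv reads in mouse H6, 6.67% in mouse H20, 6.56% in mouse H117 and 17.8% (11.3 to 26.9) in mouse H115. In TLS it had 4.66% in mouse H6, 3.09% in mouse H20 and 13.3% (12.5 to 14.2) in mouse H115. In lymph nodes of proteinuric mice it had 4.79% to 5.55%, in those of antibody-positive mice 4.25% to 6.78% and in the young library 3.56%. Both libraries of mouse H115 thus lay above all others, and the remaining 12 were within 3.09% to 7.35%.

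Other leading segments were Ighv1-15 in the TLS of mouse H6 (6.71%, interval 6.41 to 7.03), Ighv14-3 in the TLS of mouse H20 (6.78%), Ighv1-62 in the lymph node of mouse H20 (8.97%, 8.57 to 9.39), Ighv1-5 in the lymph node of mouse H117 (5.22%, 4.93 to 5.54) and Ighv3-4 in the kidney of mouse H117 (8.74%, 5.45 to 13.7, from 16 reads). Ighv1-62 is annotated as a pseudogene and shares 96.9% of its variable region with Ighv1-55, its nearest listed segment. It took between 2.35% and 8.97% of the Ighv reads in all 14 libraries. Ighv1-14, also an annotated pseudogene, took between 2.49% and 11.1%. Segments annotated as pseudogenes together took between 10.3% and 16.3% of the Ighv reads of a library.

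The 120 segments belong to 15 families, of 1 to 69 segments. Ighv1 (J558), with 69 segments, held the most reads in every library. Its share was 64.6%, 60.9%, 76.7% and 51.9% in the kidneys of mice H6, H20, H115 and H117, 65.6%, 49.9% and 69.3% in the TLS of mice H6, H20 and H115, and 61.1%, 56.2% and 60.5% in the lymph nodes of mice H6, H20 and H117. The tissues overlapped and the range within kidney and within TLS was wider than any difference between their means. Ighv2 (Q52) followed with a range of 6.67% to 15.7% in kidney (SD 3.91, n = 4) and means of 13.6% ± 3.69 (n = 3) in TLS and 12.8% ± 0.749 (n = 3) in lymph node. Ighv5 had 8.46% ± 5.89, 7.23% ± 5.55 and 9.43% ± 2.21. Ighv14 had 6.74% ± 2.17, 7.80% ± 6.43 and 7.19% ± 2.90, and Ighv3 had 6.04% ± 2.82, 4.04% ± 3.68 and 4.06% ± 2.09 in the same order.

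No family passed the test between tissues over the 15 tested (exact permutation tests with Benjamini-Hochberg adjustment). The lowest adjusted p was 0.286 for TLS versus kidney, 0.171 for kidney versus lymph node and 1 for TLS versus lymph node, and with 3 or 4 libraries a group none could pass. In the kidney, 6 families (Ighv4, Ighv9, Ighv11, Ighv12, Ighv13 and Ighv15) had no read, and in no library did one of them exceed 0.820%. A count of 0 allows a share of up to 0.441% in the kidney of mouse H6 and 0.435% in that of mouse H20, and of up to 3.33% and 1.64% in those of mice H115 and H117, so in the last 2 a share of that size was not detectable. In TLS and lymph nodes of proteinuric mice none of the 6 families exceeded 0.361%, which a count of 0 allows in every kidney.

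**Figure D2:**
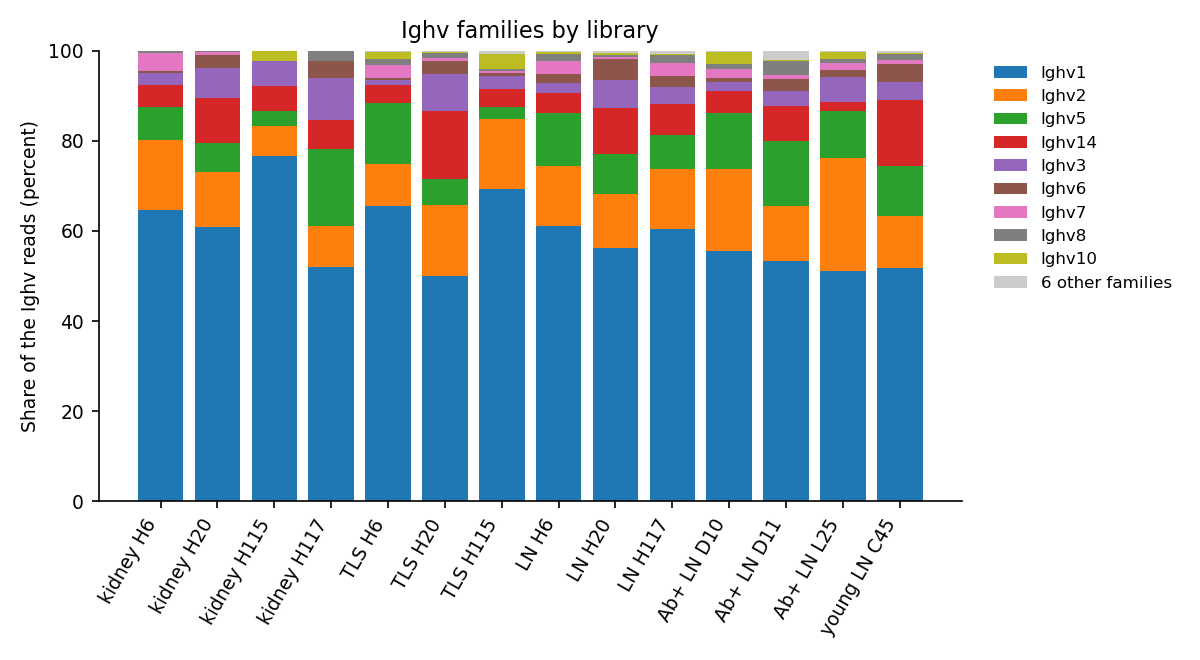
Share of the Ighv reads (percent, stacked to 100) held by 9 families and by the 6 others together, in each of the 14 libraries (LN, lymph node, and Ab+, antibody-positive). Ighv1 is the largest block in every library, from 49.9% in the TLS of mouse H20 to 76.7% in the kidney of mouse H115.

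Along the locus, the 20 segments of Ighv2 and Ighv5 lie nearest to the diversity segments (positions 1 to 20 in order), and Ighv1 and Ighv8 lie from position 45 to the far end. The D-proximal families held 19.5% ± 7.02 (SD, n = 4) of the Ighv reads in kidney, 20.8% ± 2.36 (n = 3) in TLS and 22.2% ± 2.52 (n = 3) in lymph node. The distal families held 64.2% ± 9.46, 62.5% ± 10.1 and 60.6% ± 3.25. These shares overlapped between tissues for each part of the locus (exact permutation p between 0.6 and 1 in the 9 tests). Single mice ranged more widely, with D-proximal shares from 10.0% in the kidney of mouse H115 to 26.2% in that of mouse H117.

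**Figure D3:**
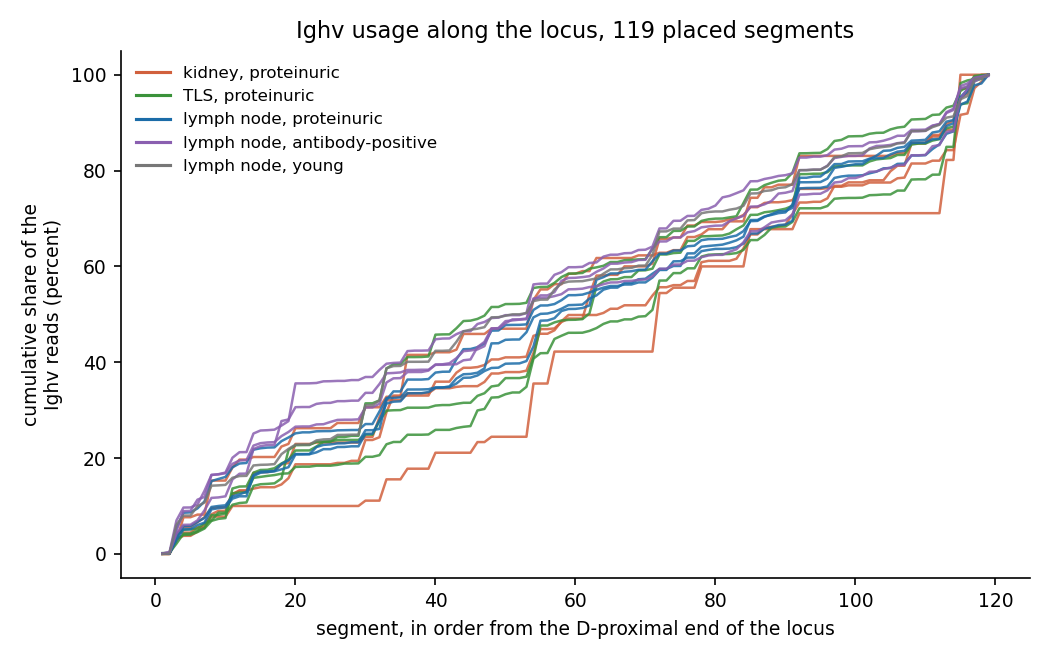
Cumulative share of the Ighv reads (percent) over the placed segments in order from the D-proximal end, 1 line per library, coloured by group. Lines of the 3 tissues interleave. The lowest line is the kidney of mouse H115, with 10.0% over the first 20 segments, and the highest at that place is an antibody-positive lymph node with 35.6%.

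Between different tissues of the proteinuric mice, segment usage was on average more alike within 1 mouse than across mice. Likeness was measured by the Morisita-Horn index, which is 1 for equal shares and 0 for no shared segment. Kidney and TLS of 1 mouse had an index of 0.817 (mouse H6), 0.851 (mouse H20) and 0.831 (mouse H115), and the 9 pairs from different mice lay between 0.442 and 0.747. TLS and lymph node of 1 mouse had 0.870 (mouse H6) and 0.821 (mouse H20), and the 7 other pairs lay between 0.665 and 0.794. For both of these tissue pairs, no pair from different proteinuric mice reached a pair from 1 mouse, but the TLS of mouse H20 with the lymph node labelled young (0.873) did. Kidney and lymph node of 1 mouse had 0.850 (mouse H6), 0.779 (mouse H20) and 0.707 (mouse H117), with the 9 others between 0.458 and 0.781. Here the groups overlapped, and the kidney of mouse H117 had a higher index with the lymph nodes of mice H6 (0.742) and H20 (0.740) than with its own.

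Over all tissue pairs, the 8 pairs from 1 mouse had a mean index of 0.816 and the 25 others of 0.655, a difference of 0.161. In a one-sided exact permutation of mouse numbers within tissues, p was 0.00463 (864 arrangements), and 0.0185 after adjustment over 4 tests. For single tissue pairs the differences were 0.218 for kidney with TLS (exact permutation p = 0.0417, adjusted 0.0741), 0.130 for kidney with lymph node (p = 0.0833, adjusted 0.0833) and 0.133 for TLS with lymph node (p = 0.0556, adjusted 0.0741), so none of these passed alone. The value for kidney with TLS and that for TLS with lymph node were the smallest that this number of mice can give. Leaving out 1 mouse left the difference over all pairs between 0.107 (without mouse H115) and 0.205 (without mouse H117). The adjusted permutation p was then between 0.111 and 0.333, with fewer arrangements left. The smallest possible unadjusted p was 0.0278 or 0.0417, too large to pass after adjustment over 4 tests, so no conclusion is drawn from this loss. Without mouse H20 and without mouse H117 the observed p was the smallest possible.

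Among the 10 libraries of proteinuric mice, the library most like each one from another tissue was from the same mouse for 8. The exceptions were both libraries of mouse H117: its kidney was most like the lymph node of mouse H6 (0.742), and its lymph node most like the TLS of mouse H20 (0.794). With the other lymph nodes included, the TLS of mouse H20 was most like the library labelled young (0.873), above its index with its own kidney (0.851) and lymph node (0.821). Within a tissue, different mice had an index between 0.594 and 0.634 in TLS, between 0.512 and 0.695 in kidney and between 0.778 and 0.870 in lymph node. Lymph nodes of different mice thus reached the values of pairs from 1 mouse. Those of mice H117 and H20 had 0.891 and 0.882 with that of antibody-positive mouse D11, above every pair from 1 mouse. The kappa light-chain segments, measured over pairs of different tissues of the proteinuric mice, had a mean index of 0.809 within and 0.572 between mice.

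**Figure D4:**
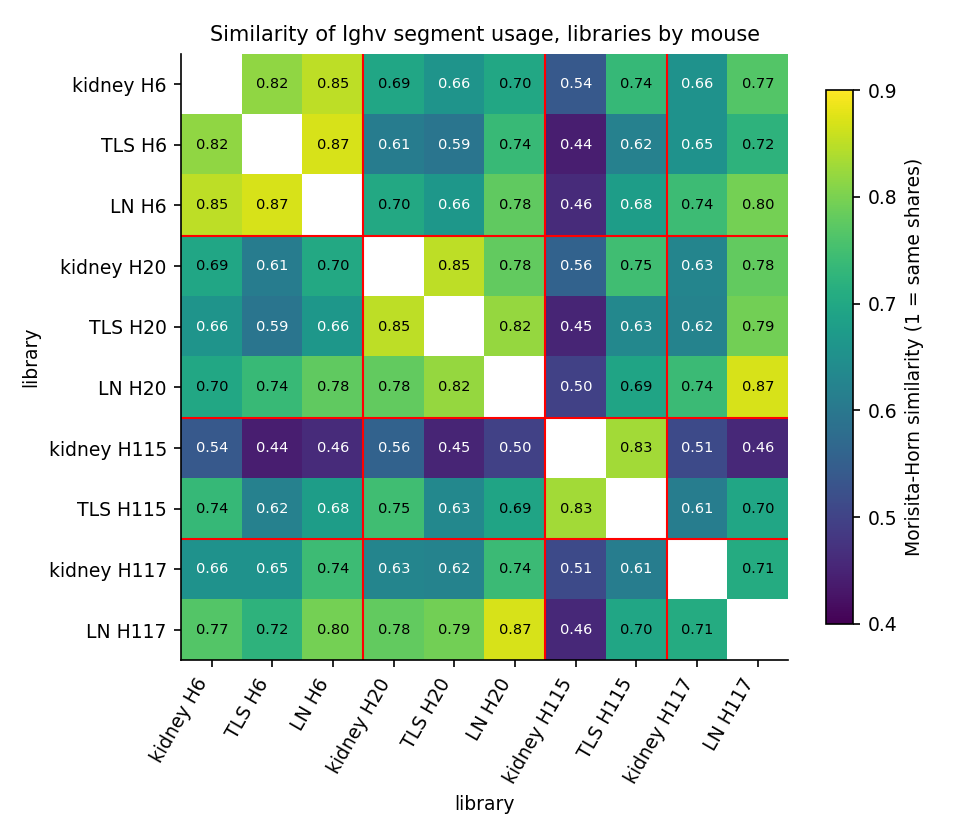
Morisita-Horn similarity of Ighv segment usage (LN, lymph node, and colour, from 0.4 to 0.9, with values) for each pair of the 10 libraries of proteinuric mice, ordered by mouse, with red lines between mice. Blocks along the diagonal are pairs from 1 mouse, such as TLS and lymph node of mouse H6 at 0.87. The kidney of mouse H115 lies between 0.442 and 0.557 with all but its own TLS.

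Segments with a large share in single mice are described without a test, since they were picked among many. Ighv1-15 had 5.00% of the Ighv reads in the kidney of mouse H6, 6.71% in its TLS and 5.36% in its lymph node. In the other 7 libraries of proteinuric mice it had between 0% and 2.19%. Ighv1-23, nearly identical to it as printed above, had 3.97%, 5.64% and 5.38% in mouse H6 and at most 2.73% elsewhere in these mice. Over the 10 libraries with at least 1000 Ighv reads the shares of both moved together (Pearson r = 0.991, a description over libraries that share mice).

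In mouse H20 the Ighv14 family stood out. Ighv14-4 had 5.22% in the kidney, 6.65% in TLS and 6.05% in the lymph node of mouse H20, above the 2.14% to 4.44% of the other libraries of proteinuric mice. Ighv14-3 had 4.35% in kidney and 6.78% in TLS, but 2.49% in lymph node, within the 1.10% to 3.28% of the others. In all, Ighv14 held 9.86%, 15.2% and 10.2% of the Ighv reads of mouse H20, and between 4.02% and 6.95% in the other mice of this group.

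Mouse H115, with the least even usage, shared a set of distal segments between kidney and TLS. Besides Ighv1-82, these were Ighv1-34 (12.2% and 6.12%), Ighv1-80 (11.1% and 5.79%), Ighv1-14 (11.1% and 5.88%) and Ighv1-18 (6.67% and 2.94%), the last of which was named after its values were seen. For Ighv1-82, Ighv1-80, Ighv1-34 and Ighv1-18 both libraries of mouse H115 lay above the other 8 of proteinuric mice. The kidney values rest on 6 to 16 reads each, and the TLS values on 171 to 774. Ighv1-82 and Ighv1-80 share 96.3% of their variable region and varied together over the deep libraries (r = 0.978), as did Ighv1-34 and Ighv1-18 (r = 0.963).

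Not every prominent segment was shared by the tissues of a mouse. Ighv5-17 had 5.92% in the TLS of mouse H6 but 0.294% in its kidney and 0.757% in its lymph node. Ighv2-6 had 6.18% in the TLS of mouse H20, 3.33% in its kidney and 1.82% in its lymph node. Ighv5-9 had 7.10% in the kidney of mouse H117 and 2.29% in its lymph node, and Ighv3-4 had 8.74% and 1.67%. In the kidney these are 13 and 16 reads.

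**Figure D5:**
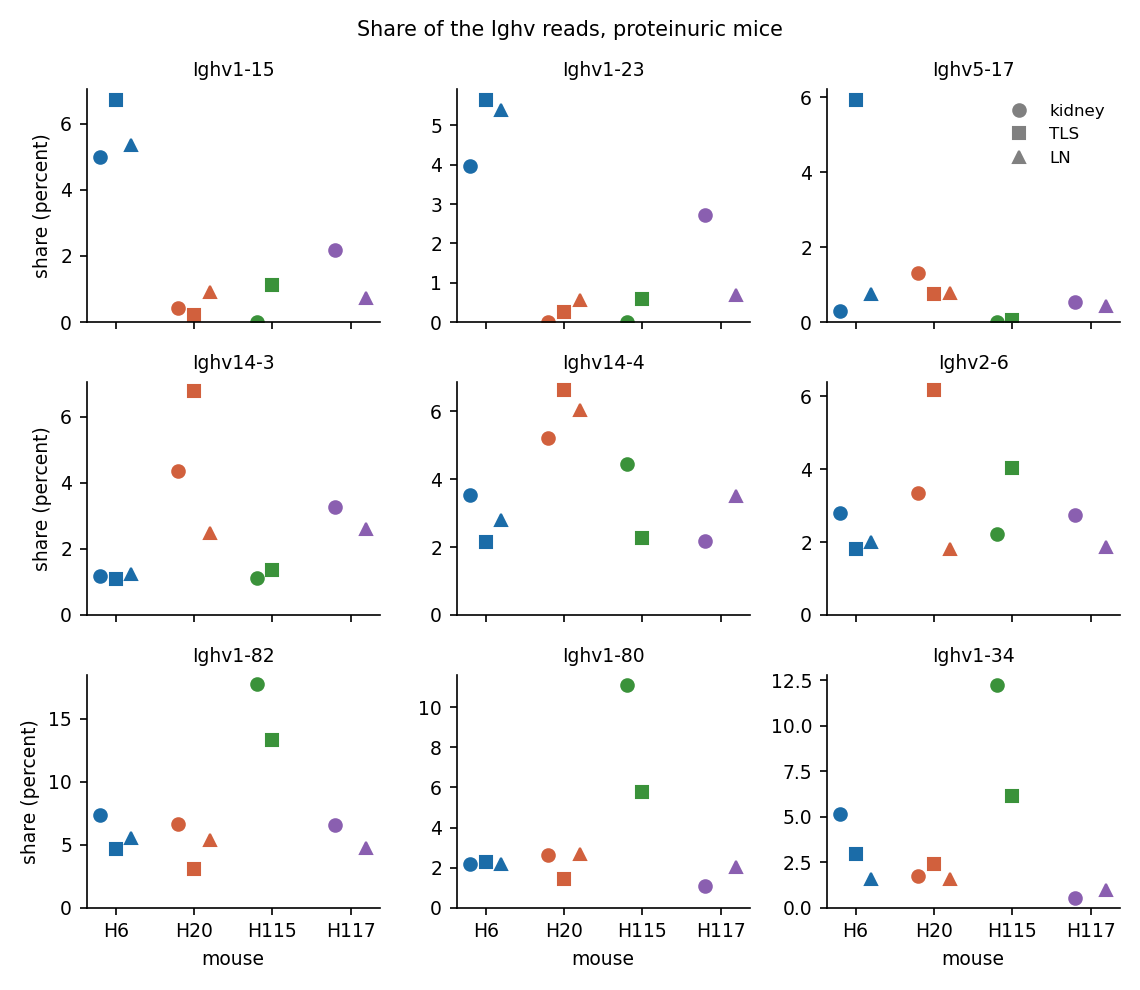
Share of the Ighv reads (percent) of 9 segments in kidney (circles), TLS (squares) and lymph node (LN, triangles) of the proteinuric mice, by mouse. Ighv1-15 and Ighv1-23 are high in all 3 tissues of mouse H6, Ighv14-4 in those of mouse H20 and Ighv1-82, Ighv1-80 and Ighv1-34 in both of mouse H115. Ighv5-17 is high in 1 library alone, the TLS of mouse H6, at 5.92%.

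Lymph nodes of antibody-positive and proteinuric mice overlapped in their Ighv level. There were 55.9, 43.6 and 35.8 Ighv reads per 1000 in mice D10, D11 and L25, a mean of 45.1 ± 10.1 (SD, n = 3) against 59.2 ± 10.9 (n = 3), and the libraries overlapped (exact permutation p = 0.2, smallest possible 0.1). In limma on these 6 libraries alone, 0 of the 111 tested segments were called, as were 0% of the 6810 genes in both directions. At an unadjusted p under 0.05 there were 2 segments in limma, 6 in the edgeR quasi-likelihood test and 7 in DESeq2. The other 9 segments held at most 0.327% of the Ighv reads of a library. Of the 26 tested genes of the heavy-chain list, 0 were called in limma, and 0 had an unadjusted p under 0.05.

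The split along the locus is given with a test that could not pass at this size. D-proximal families held 30.6%, 26.6% and 35.6% of the Ighv reads in antibody-positive mice D10, D11 and L25, and 25.2%, 20.8% and 20.8% in proteinuric mice H6, H20 and H117. The groups did not overlap, with a difference of 8.67 percentage points (exact permutation p = 0.1, the smallest possible, adjusted 0.15). Ighv1 was lower, at 53.3% ± 2.29 (SD, n = 3) against 59.3% ± 2.64 (n = 3), also without overlap (exact permutation p = 0.1, adjusted 0.808 over 15 families). The RNA kit and the age of the mice differed between these groups, so neither can be told apart from the stage. Mice D10, D11 and L25 were 28, 29 and 18 weeks old, and mice H6, H20 and H117 were 39, 36 and 32. The library labelled young had a D-proximal share of 22.8% and an Ighv1 share of 51.7%.

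Ighv1-82 led in antibody-positive mice D10 (6.78%) and D11 (4.99%), and Ighv2-9 in mouse L25. Some segments had a larger share in a single antibody-positive mouse than in the other lymph nodes. Ighv2-9 had 7.88% of the Ighv reads in mouse L25 and between 0.867% and 2.66% in the other lymph nodes. Ighv5-16 had 4.97% in mouse D10 and between 0.418% and 2.08% in the others. Ighv2-2 was high in several, with 6.68% in mouse L25, 6.07% in the young library and 5.22% in the lymph node of proteinuric mouse H6. Ighv14-4 and Ighv14-3 led in the young library, at 6.71% and 6.16%. The evenness of usage overlapped between antibody-positive and proteinuric mice, with an inverse Simpson number of 37.9 ± 4.01 against 39.0 ± 4.92 (n = 3 each, exact permutation p = 0.8).

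Ighv reads were also set against other antibody reads of the same library. There were 79.5 ± 24.7 Ighv reads per 100 heavy constant reads in kidney (SD, n = 4), 87.4 ± 12.3 in TLS (n = 3), 87.3 ± 14.5 in lymph nodes of proteinuric mice (n = 3) and 75.6 ± 8.67 in those of antibody-positive mice (n = 3). Per 100 reads of kappa variable segments there were 61.1 ± 9.22, 58.5 ± 7.47, 60.02 ± 8.23 and 54.7 ± 5.33 in the same order. Across the 10 libraries of proteinuric mice, whose Ighv level spanned from 0.259 to 70.3 per 1000, the first ratio lay between 59.2 and 113.1 and the second between 51.4 and 70.3. For both ratios the groups overlapped in all 4 comparisons (exact permutation p between 0.3 and 1). Without the IgG genes, there were 384.2, 296.1, 409.1 and 250.7 Ighv reads per 100 constant reads in the kidneys of mice H6, H20, H115 and H117, and 760.7, 687.8 and 518.2 in the TLS of mice H6, H20 and H115. On that scale kidney and TLS did not overlap (means 335 and 656, exact permutation p = 0.0571, the smallest possible). IgG genes took between 70.6% and 85.5% of the constant reads in kidney and between 83.9% and 89.8% in TLS, and their part in this was not tested.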

How the data were processed

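RNA of 14 NZB/W tissues was sequenced. Per the study's methods, the authors isolated polyadenylated RNA, fragmented it with RNase III, sequenced it on an Ion Torrent PGM, and mapped it to GRCm38 in CLC Genomics Workbench 8 with default settings. How reads that fit several segments were counted is not given in the sources used here. The deposited values are a normalized signal per gene and library. In 100% of values (tolerance 0.01) the signal divided by the column minimum was whole, so the authors' table holds reads plus 1 over a size factor, and reads were recovered on that basis. The whole-kidney samples of the series were not analysed here. Some listed genes are not reported here.

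Segments were described as a share of Ighv reads. For levels, shares, evenness and ratios, exact permutation tests were two-sided, and mouse numbers were permuted within tissues for likeness. Single genes were tested with limma 3.58.1 (trend, robust) in R 4.3.3 on log2(value + 1). The fits were tested on simulated data first. On recovered reads, edgeR called 833 genes in kidney versus TLS, 785 in lymph node versus TLS, 3195 in kidney versus lymph node and 0 in antibody-positive versus proteinuric lymph nodes. Alternatives were edgeR 4.0.16 (quasi-likelihood) and DESeq2 1.42.0 on recovered reads, pseudocounts of 0.5 and 5, no filter and a mean of 20, a log2 fold change of 1, the mouse as a block, and leaving out libraries. Wilson intervals are at 95%. PCR copies are not independent molecules, so intervals and floors cover counting error only.

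Mouse numbers mark 1 animal, per the labels. Deviations from tissue means correlated at 0.351 to 0.454 across genes in the 3 pairs of kidney and TLS from 1 mouse, and at -0.335 to 0.202 in the other 5 pairs from 1 mouse. The 25 pairs from different mice lay between -0.498 and 0.512. The 9 of kidney and TLS among them lay between -0.498 and 0.361, so pairs from 1 mouse and from different mice overlapped. Segments were named where they were among the 3 leading ones of a library, had a mean share of at least 3% in a group, or were among the 5 called segments with the largest difference and no overlap in a comparison and direction. The members and lists were chosen with earlier results of these data known. Other values were computed with Python 3.11.15, numpy 2.4.6 and scipy 1.17.1.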

Additional observations from a re-analysis of the deposited data

Results flagged for a closer look

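Among 39 measures of the 4 kidney libraries, 7 had 1 library far from the other 3 by Dixon's ratio of the gap to the range, at its 95% limit. Chance gives such a library in about 1 of 20 groups, and shares of one library are not independent. In the kidney of mouse H115 (90 Ighv reads), Ighv1-82 took 17.8% (other kidneys 6.56% to 7.35%), Ighv1-80 took 11.1% (1.09% to 2.61%) and Ighv10 took 2.22% (0% to 0.145%). In the kidney of mouse H6, Ighv7 took 4.12% (others 0% to 0.580%), Ighv2-9-1 took 3.68% (0% to 0.546%) and Ighv1-5 took 1.76% (1.09% to 1.16%). In the kidney of mouse H117, Ighv5-9 took 7.10% (1.91% to 2.22%). The lymph node library labelled young, which enters no comparison, held 18827 Ighv reads, 52.1 per 1000.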

How the results depend on the processing

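In every alternative run, 0 families and 0 parts of the locus were called, in a design where 3 or 4 libraries a group cannot pass. With all 7 lymph node libraries against TLS, where an unadjusted p can reach 0.0167, 0 families were called as well (lowest adjusted p = 0.25, exact permutation test). After adjustment over 15 families, a single family at that smallest p cannot pass either, so no conclusion is drawn from this count. The number of segments called in lymph node versus TLS, 3, was 5 with a pseudocount of 5, 0 with the edgeR quasi-likelihood test, 1 with only the 2 tissues and 0 to 8 with a library left out. The cause was not tested. With the mouse as a replicate block it was 2, and 79 in kidney versus TLS and 95 in kidney versus lymph node, and it changed no other call of a named segment than those of the 3 in lymph node versus TLS. The difference in likeness within and between mice, 0.161, was 0.126 with Bray-Curtis similarity, 0.145 without the leading segment of each library, 0.0174 over families and 0.163 with Morisita's index, which was added after seeing the data, each past the threshold. It was 0.107 to 0.205 with 1 mouse left out, where too few arrangements remained for the adjusted p to pass. The inverse Simpson number, 3.50 higher in TLS than in kidney, turned to -1.50 without the kidney of mouse H115 (range -1.50 to 6.78). That of antibody-positive minus proteinuric lymph nodes, -1.10, ranged from -3.30 to 1.56 and changed sign without antibody-positive mouse L25 (1.01) and without proteinuric mouse H117 (1.56). Without IgG genes, Ighv reads per 100 constant reads were 335 in kidney, 656 in TLS and 523 in lymph node of proteinuric mice, and kidney and TLS no longer overlapped. Of the other results, 25 single-segment values in lymph node versus TLS lost their call, where each called segment counts once per alternative setting. Among values that answer a comparison, also counted once per setting, 267 stayed the same, 8 moved, 4 were weaker and 3 reversed. The kidney libraries, with 90 to 690 Ighv reads, limit all shares there.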
